A study of Mus musculus with 18 samples.

Results

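A set of 10 genes that restrain or tune signalling from the T-cell receptor were followed through 18 RNA sequencing libraries of sorted mouse T-lineage cells. They were taken by symbol from the 43280 genes counted, for what their proteins are known to do, and all 10 were found: Ptpn6, Ptpn22, Ptpn2, Ubash3a, Ubash3b, Csk, Pag1, Cblb, Sla and Themis. Each held between 102 and 9577 counts in every library, so each of the 10 passed the filter on low counts and was among the 13922 genes tested.

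The study grew T cells from induced pluripotent stem cells, called Pmel iPSC in the labels, and set them beside cells taken from mice. The CD4+CD8+ libraries (n = 3) came from cells at the stage where thymocytes carry both coreceptors, differentiated on OP9-DL1, a bone marrow stromal line that displays a Notch ligand. The Artificial CD8 libraries (n = 5), described as OP9CD8, came from CD8+ cells of the same source made on OP9-DL1. The iRTE libraries (n = 5) came from CD8+ cells of that source as well, and their abbreviation is not spelled out. The series describes a CD8+ group made in a 3D culture of thymic tissue, which can be iRTE only by elimination, because the iRTE growth protocol names OP9-DL1 too. The splenic CD8 libraries (n = 5) were naive CD8+ T cells taken directly from spleens of transgenic mice. No treatment was given, and age, sex, strain and clone are not stated. Cells were sorted for CD45, CD4, CD8 and the alpha-beta receptor after cells with NK1.1, the gamma-delta receptor or CD11c were gated out. The labels do not tie the replicates to separate cultures or animals, so p-values describe the spread between these libraries, which may be technical.

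When a T-cell receptor binds its ligand, the kinase Lck phosphorylates the receptor's CD3 and zeta chains, Zap70 docks there, and a chain of adaptors carries the signal on. Csk holds Lck in check by phosphorylating its tail, phosphatases remove the activating phosphates, and ubiquitin ligases mark receptor-proximal proteins for removal. In the thymus the strength of this signal decides between survival, death and lineage, and in the spleen the same brakes keep naive cells quiet.

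Levels are given as CPM, the counts of a gene as a share of its library, scaled by the trimmed mean of M-values (TMM), and library values are in replicate order. A change is the fitted log2 ratio of the first group named to the second, and ± after it is the standard error (SE) of the difference in mean log2 CPM, computed apart from the fit. A gene rose or fell where edgeR's quasi-likelihood test gave an adjusted p under 0.05. In bulk RNA, a smaller number of expressing cells and less RNA per cell cannot be told apart.

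Total counts ran from 11132768 to 19305751 per library. All 7 T-cell markers checked, among them Cd3e, Lck and Cd8b1, were present in every group, with a summed level of 5195 to 9151 CPM per library. The 5 markers of CD4+CD8+ thymocytes (Rag1, Rag2, Dntt, Ptcra and Cd4) summed to 809 to 1121 CPM in CD4+CD8+ libraries, 295 to 329 CPM in Artificial CD8, 37.7 to 40.6 CPM in splenic CD8 and 3.35 to 15.5 CPM in iRTE. B-cell markers summed to 34.7 to 48.2 CPM in splenic CD8 (6 genes, none at 0) and to at most 23.4 CPM elsewhere, where Ms4a1 and Pax5 had no count. Myeloid markers stayed at or under 13.5 CPM and natural killer markers at or under 13.0 CPM in all libraries, and stromal markers reached 41.0 CPM in a CD4+CD8+ library. Red-cell markers summed to 60.6 to 81.1 CPM in splenic CD8 and to at most 1.29 CPM elsewhere, and thymic epithelial markers reached 39.3 CPM in Artificial CD8, where Foxn1 and Krt5 had no count. Several of the 10 genes are also active in other blood cells, and the part of such cells in the results was not tested. The iRTE libraries were the most variable: over the genes tested, the median SD of log2 CPM was 0.47 there against 0.17 in splenic CD8, and over the 10 regulators 0.29 against 0.12. The iRTE libraries 1 to 3 and 4 to 5 are named in different styles by their descriptions, and the fitted changes and call counts of the comparisons with iRTE were also computed with either set alone.

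The pair of UBASH3 genes and the phosphatase gene Ptpn22 carried the largest differences, so the 250 bases upstream of their annotated starts are shown, from the RefSeq promoter table of build GRCm38.p6, 5′ to 3′ on the gene's strand. Such windows were drawn for 7 of the 10 genes, at the first start listed. For Ubash3a and Ubash3b that start lies inside the span that GENCODE M21 gives the gene. Capitals mark GGAA, the core of ETS factor sites, or its reverse complement TTCC.
Ubash3a (chr17:31207816-31208065, plus strand): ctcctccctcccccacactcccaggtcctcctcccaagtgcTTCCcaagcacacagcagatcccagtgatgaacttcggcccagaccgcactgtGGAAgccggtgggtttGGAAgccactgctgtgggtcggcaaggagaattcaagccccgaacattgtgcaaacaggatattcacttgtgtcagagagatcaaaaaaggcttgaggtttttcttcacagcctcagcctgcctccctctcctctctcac
Ubash3b (chr9:41158063-41158312, minus strand): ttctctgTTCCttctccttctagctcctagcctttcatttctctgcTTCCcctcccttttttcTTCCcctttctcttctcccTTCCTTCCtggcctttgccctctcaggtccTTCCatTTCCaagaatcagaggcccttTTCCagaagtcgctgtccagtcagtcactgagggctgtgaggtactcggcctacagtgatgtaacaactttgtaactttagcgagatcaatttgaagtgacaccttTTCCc
Ptpn22 (chr3:103859545-103859794, plus strand): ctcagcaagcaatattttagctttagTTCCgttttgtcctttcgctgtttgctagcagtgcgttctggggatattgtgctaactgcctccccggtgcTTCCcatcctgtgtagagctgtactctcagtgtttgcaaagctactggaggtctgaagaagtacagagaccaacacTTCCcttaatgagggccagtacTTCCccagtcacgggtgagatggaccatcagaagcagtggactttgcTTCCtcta
On both strands, GGAA matched 3 times upstream of Ubash3a, 9 times upstream of Ubash3b and 5 times upstream of Ptpn22. Of the 27025 upstream regions of this length, 93.4% held at least 1 match, 54.8% at least 3, 18.05% at least 5 and 0.503% at least 9. The E-box words CAGCTG and CAGGTG (in 12.8% and 17.1% of those regions) and the RUNX core TGTGGT (14.2%) were not found in these 3 windows. The matches describe the sequence only, as the files hold no measurement of binding.

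Ubash3a and Ubash3b encode Sts-2 and Sts-1, related proteins with a histidine phosphatase fold, of which Sts-1 is the stronger phosphatase towards Zap70. Splenic CD8 cells held the most Ubash3a and the least Ubash3b, and the 3 cultured groups held less of the first and more of the second. Ubash3a, on GRCm38 chr17:31207873-31246892, stood at 221, 229, 241, 232 and 236 CPM in splenic CD8 and at 71.5, 87.1 and 74.3 CPM in CD4+CD8+ cells. It read 64.1, 68.4, 60.1, 52.2 and 53.6 CPM in iRTE and 64.1, 55.2, 56.4, 63.2 and 61.9 CPM in Artificial CD8. Every splenic library lay far above every cultured one. Ubash3a was lower in iRTE than in splenic CD8 by a change of -1.96 ± 0.077, edgeR adjusted p = 8.37e-12. In Artificial CD8 against splenic CD8 it changed by -1.94 ± 0.049, edgeR adjusted p = 6.56e-12. In splenic CD8 against CD4+CD8+ cells it rose by 1.58 ± 0.089, edgeR adjusted p = 1.87e-09.

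Among cultured cells Ubash3a moved little. It fell from CD4+CD8+ cells to iRTE (-0.38 ± 0.11, edgeR adjusted p = 0.0127) and to Artificial CD8 (-0.37 ± 0.10, edgeR adjusted p = 0.0249), with no overlap in either comparison. Neither call held in every fit. The first was lost without CD4+CD8+ 2 (-0.29) and in a fit of iRTE and CD4+CD8+ libraries alone (-0.38). The second was lost without CD4+CD8+ 2 (-0.28), CD4+CD8+ 3 (-0.40), Artificial CD8 2 (-0.34) or Artificial CD8 3 (-0.34). It was also lost without a filter on low counts (-0.35) or with a term for replicate number in the fit (-0.34). The changes themselves moved less: with single libraries left out, the first ran from -0.44 to -0.29 and the second from -0.42 to -0.28. Between iRTE and Artificial CD8 the change was -0.013 ± 0.086, edgeR adjusted p = 0.932, and its sign turned when iRTE 4 (0.032) or 5 (0.024) or Artificial CD8 1 (0.011) or 4 (0.0055) was left out. The order of the group means was thus splenic CD8, CD4+CD8+, then Artificial CD8 and iRTE, the last pair not distinguished.

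Ubash3b, on GRCm38 chr9:41011098-41161697, stood at 57.4, 47.4 and 53.4 CPM in CD4+CD8+ cells and at 5.89, 8.07, 7.17, 8.93 and 9.68 CPM in splenic CD8. It read 42.4, 34.6, 35.8, 42.9 and 19.7 CPM in iRTE and 13.3, 21.2, 30.7, 27.5 and 35.0 CPM in Artificial CD8. All cultured libraries lay above all splenic ones, while iRTE and Artificial CD8 overlapped. Ubash3b was higher than in splenic CD8 in iRTE (2.14 ± 0.24, edgeR adjusted p = 7.86e-07) and in Artificial CD8 (1.69 ± 0.27, edgeR adjusted p = 7.99e-06). From CD4+CD8+ to splenic CD8 it changed by -2.73 ± 0.15, edgeR adjusted p = 1.19e-07, the largest change of any of the 10 genes. It fell from CD4+CD8+ to Artificial CD8 (-1.05 ± 0.26, edgeR adjusted p = 0.0115), a call lost without CD4+CD8+ 1 (-0.98). From CD4+CD8+ to iRTE the libraries did not overlap, but the change of -0.59 ± 0.22, edgeR adjusted p = 0.115 did not pass. Between iRTE and Artificial CD8 it did not pass either (0.46 ± 0.32, edgeR adjusted p = 0.13), and it moved to 0.29 without Artificial CD8 1 and to 0.61, which passed, without iRTE 5, the library at 19.7 CPM. With 102 to 148 counts per library in splenic CD8, Ubash3b was the least deeply counted of these genes there.

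**Figure D1:**
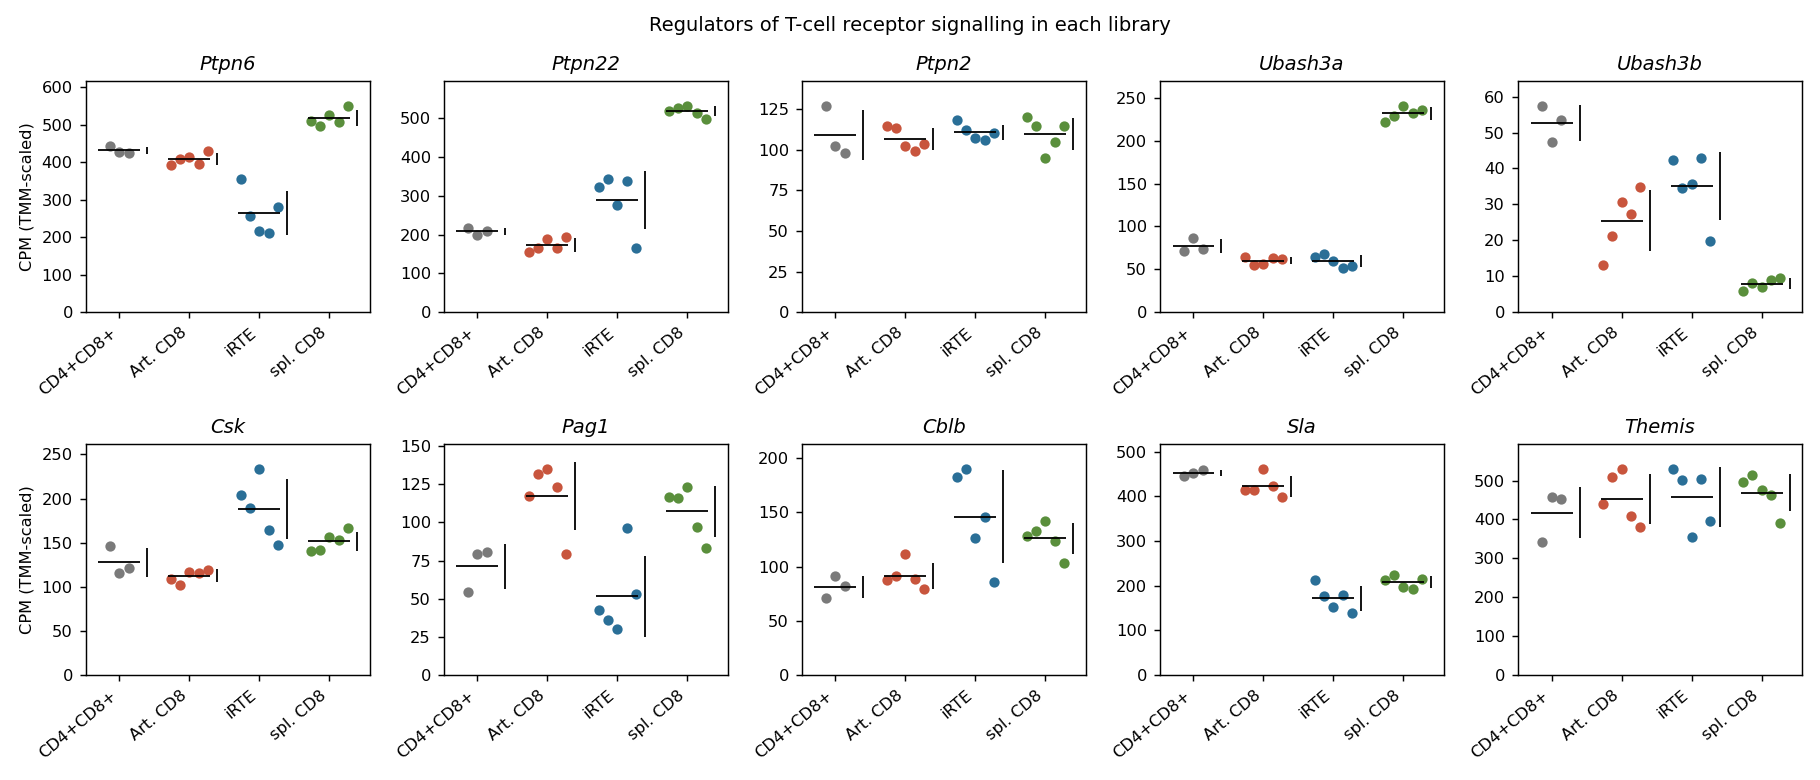
TMM-scaled CPM (linear axes from 0) of each of the 10 genes by group; points are libraries in replicate order, horizontal lines group means and vertical lines ± 1 SD (n = 3 for CD4+CD8+, 5 for the others). Ubash3a is highest in the 5 splenic libraries (221 to 241 CPM) and Ubash3b lowest there (5.89 to 9.68 CPM), Sla is high in CD4+CD8+ and Artificial CD8, and Themis (342 to 531 CPM) and Ptpn2 (94.7 to 127 CPM) vary little between groups.

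The ratio of Ubash3a to Ubash3b counts within a library needs no scaling between libraries. It ran from 24.4 to 37.6 in splenic CD8, with a median of 28.3. In iRTE it ran from 1.22 to 2.72 (median 1.68), in Artificial CD8 from 1.77 to 4.82 (median 2.30) and in CD4+CD8+ cells from 1.25 to 1.84 (median 1.39). No cultured library came near the splenic range. The ratio of Ptpn22 to Ptpn6, the phosphatases described next, ran from 0.904 to 1.06 in splenic CD8, from 0.588 to 1.60 in iRTE, from 0.394 to 0.455 in Artificial CD8 and from 0.467 to 0.492 in CD4+CD8+ cells. These ratios were chosen after the values were seen, and compare counts of genes of different length.

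**Figure D2:**
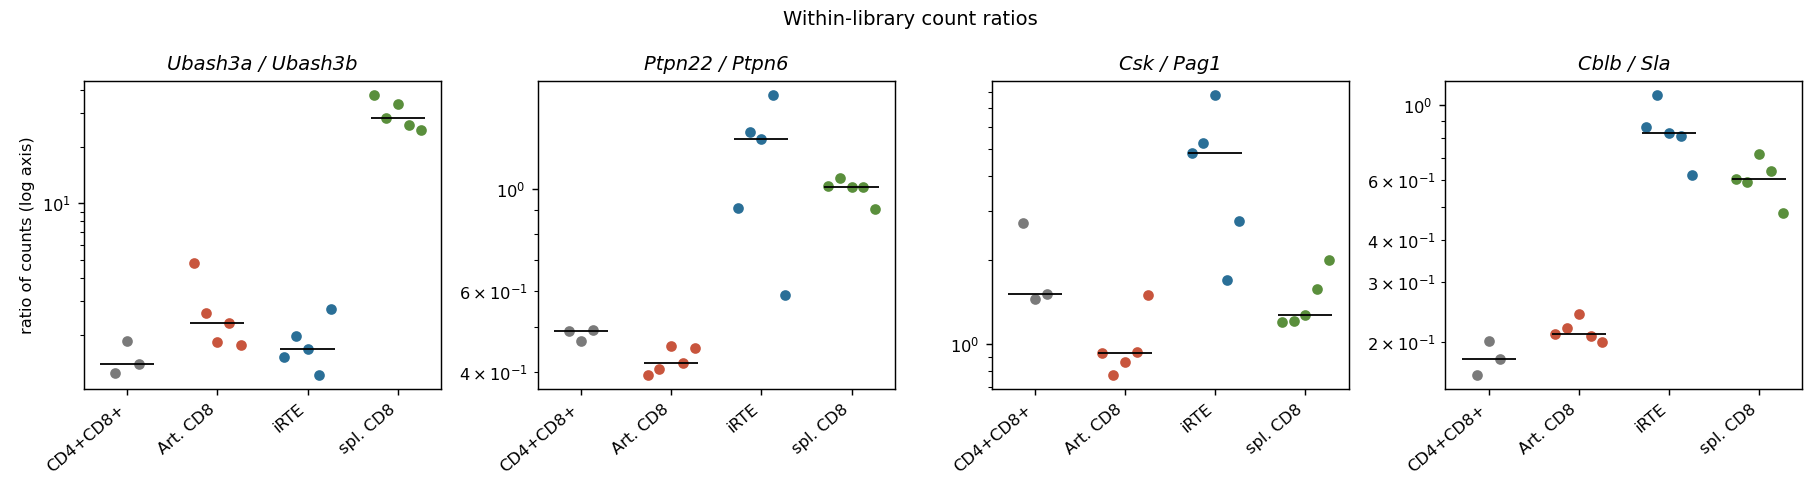
Ratios of raw counts of 4 pairs of genes within each library (log axes); points are libraries and lines group medians. The Ubash3a to Ubash3b ratio is 24.4 to 37.6 in splenic CD8 and at most 4.82 in the cultured groups, and the Cblb to Sla ratio separates iRTE and splenic CD8 (0.480 to 1.07) from Artificial CD8 and CD4+CD8+ (0.160 to 0.241).

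Among the phosphatases, Ptpn22 encodes PEP, which binds Csk and dephosphorylates Lck and Zap70. It was highest in splenic CD8, at 517, 525, 531, 514 and 497 CPM, and lowest in Artificial CD8, at 154, 165, 189, 165 and 194 CPM. In iRTE it read 323, 343, 277, 338 and 165 CPM and in CD4+CD8+ cells 217, 199 and 209 CPM. The iRTE libraries 1 to 4 lay between the splenic and the other cultured libraries, and iRTE 5 lay among the Artificial CD8 libraries. Ptpn22 was lower than in splenic CD8 both in iRTE (-0.84 ± 0.20, edgeR adjusted p = 7.38e-05) and in Artificial CD8 (-1.57 ± 0.065, edgeR adjusted p = 3.34e-08). It was higher in iRTE than in Artificial CD8 (0.74 ± 0.21, edgeR adjusted p = 0.000512) and higher in splenic than in CD4+CD8+ cells (1.31 ± 0.040, edgeR adjusted p = 4.71e-06). The rise from CD4+CD8+ to iRTE was near the threshold (0.47 ± 0.20, edgeR adjusted p = 0.0482). It stayed past it only without iRTE 5 (0.62) among the 8 fits that left out a library, and the values without iRTE 1, 2, 3 and 4 were 0.43, 0.40, 0.49 and 0.41, and without CD4+CD8+ 1, 2 and 3 were 0.50, 0.44 and 0.48. With iRTE 4 and 5 alone that change was 0.28 and did not pass. Nor did it with library totals (0.36), without a filter (0.46), with limma-voom (0.42) or in a fit of both groups alone (0.47). From CD4+CD8+ to Artificial CD8 the change of -0.26 ± 0.073, edgeR adjusted p = 0.311 did not pass.

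Ptpn6 encodes SHP-1, a phosphatase recruited by inhibitory receptors and by the Themis and Grb2 complex. Its lowest group was iRTE, at 356, 257, 215, 211 and 279.9 CPM, and its highest splenic CD8, at 508, 496, 526, 508 and 550.0 CPM. It read 443, 427 and 424 CPM in CD4+CD8+ cells and 392, 407, 415, 395 and 431 CPM in Artificial CD8. All 5 iRTE libraries lay below every library of each other group. Ptpn6 was lower in iRTE than in splenic CD8 (-0.97 ± 0.14, edgeR adjusted p = 9.61e-07), Artificial CD8 (-0.63 ± 0.14, edgeR adjusted p = 0.000227) and CD4+CD8+ cells (-0.71 ± 0.14, edgeR adjusted p = 0.00049). It was also lower in Artificial than in splenic CD8 (-0.34 ± 0.036, edgeR adjusted p = 0.0131). The neighbours above iRTE were not told apart: Artificial CD8 against CD4+CD8+ gave -0.080 ± 0.031, edgeR adjusted p = 0.739, and splenic CD8 against CD4+CD8+ gave 0.26 ± 0.032, edgeR adjusted p = 0.0942, without overlap. The latter passed with library totals (0.34), with only genes of 10 CPM or more (0.31) and in a fit of those groups alone (0.26). Gm20531, an antisense gene, shares 195 exonic bases with Ptpn6 on GRCm38 and held 10 to 107 counts per library against 2434 to 9415 for Ptpn6. As the strand setting is not given in the sources used here, reads in those shared bases cannot be told apart.

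Ptpn2, which encodes a phosphatase acting on Lck, Fyn and cytokine-linked kinases, varied little. Over all 18 libraries it ran from 94.7 to 127 CPM. Group means were 109 ± 15.6 CPM (SD, n = 3) in CD4+CD8+, 111 ± 4.74 in iRTE, 107 ± 6.82 in Artificial CD8 and 109.8 ± 10.1 in splenic CD8 (n = 5 each). The 6 changes lay between -0.043 and 0.055, with SE of 0.049 to 0.13 and a smallest edgeR adjusted p of 0.67, and no order of the groups could be told.

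Csk and Pag1 belong to a common brake: Csk is the kinase that inactivates Lck and Fyn, and Pag1 encodes PAG, a membrane adaptor that brings Csk to them. In iRTE the kinase was high and its anchor low. Csk read 204, 189.7, 234, 164 and 147 CPM in iRTE, 141, 141, 156, 153 and 166 CPM in splenic CD8, 147, 116 and 121 CPM in CD4+CD8+ cells and 109, 102, 117, 116 and 119 CPM in Artificial CD8. All iRTE libraries lay above all Artificial CD8 ones, and overlapped splenic CD8. Csk was higher in iRTE than in Artificial CD8 (0.74 ± 0.12, edgeR adjusted p = 4.64e-05) and CD4+CD8+ cells (0.55 ± 0.16, edgeR adjusted p = 0.00501). The latter call was lost in a fit of iRTE and CD4+CD8+ libraries alone (0.56). Csk was lower in Artificial than in splenic CD8 (-0.43 ± 0.062, edgeR adjusted p = 0.00301). Its rise in iRTE over splenic CD8 (0.31 ± 0.13, edgeR adjusted p = 0.0254) was lost without iRTE 1 (0.28) or iRTE 3 (0.22). That rise was also lost, with all libraries kept, under scaling to library totals (0.12) and in a fit of all iRTE and splenic CD8 libraries alone (0.31). The iRTE libraries 1 to 3 (189.7 to 234 CPM) all exceeded iRTE 4 and 5 (147 and 164 CPM), and with iRTE 4 and 5 alone Csk did not differ detectably from splenic CD8 (0.045) or CD4+CD8+ (0.29). Splenic CD8, CD4+CD8+ and Artificial CD8 follow iRTE in the order of means, and neither step after splenic CD8 passed, except splenic CD8 over CD4+CD8+ with library totals (0.32).

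Pag1 read 42.4, 36.1, 30.1, 96.6 and 53.3 CPM in iRTE, 117, 131, 135, 124 and 79.2 CPM in Artificial CD8, 117, 116, 123, 97.2 and 83.4 CPM in splenic CD8 and 54.3, 79.6 and 80.3 CPM in CD4+CD8+ cells. The values in iRTE 1 to 3 were the lowest of all 18 libraries, while iRTE 4 lay within the splenic range. Pag1 was lower in iRTE than in Artificial CD8 (-1.18 ± 0.32, edgeR adjusted p = 0.000924) and in splenic CD8 (-1.05 ± 0.31, edgeR adjusted p = 0.00131). With iRTE 4 and 5 alone neither passed (-0.65 and -0.51). From CD4+CD8+ to iRTE the change was -0.46 ± 0.34, edgeR adjusted p = 0.256, and it passed without iRTE 4 (-0.81) and with iRTE 1 to 3 alone (-0.98). Changes of 0.13 ± 0.17, edgeR adjusted p = 0.667 between Artificial and splenic CD8, 0.72 ± 0.23, edgeR adjusted p = 0.105 between Artificial CD8 and CD4+CD8+, and 0.59 ± 0.21, edgeR adjusted p = 0.0879 between splenic CD8 and CD4+CD8+ did not pass, although the last pair of changes passed in fits of the compared groups alone (0.72 and 0.58). The ratio of Csk to Pag1 counts ran from 1.70 to 7.78 in iRTE (median 4.81) and from 1.20 to 1.99 in splenic CD8 (median 1.27). It ran from 1.46 to 2.70 in CD4+CD8+ cells (median 1.51) and from 0.775 to 1.50 in Artificial CD8 (median 0.926). The library iRTE 4 (1.70) lay inside the splenic and CD4+CD8+ ranges, and iRTE 5 (2.76) lay just above the latter.

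Cblb and Sla encode partners in receptor removal: Cbl-b is a ubiquitin ligase that sets the need for costimulation, and Sla encodes SLAP, an adaptor that leads the zeta chain to Cbl for degradation in CD4+CD8+ thymocytes. Sla, on GRCm38 chr15:66780819-66831829, fell into a high and a low class. It read 445, 453 and 459.5 CPM in CD4+CD8+ cells and 414, 414, 463, 423 and 398 CPM in Artificial CD8. In iRTE it read 213, 178, 153, 179 and 138 CPM and in splenic CD8 212, 224, 198, 193 and 215 CPM. Artificial CD8 and CD4+CD8+ libraries overlapped, and lay above every iRTE and splenic library. Sla was lower in iRTE than in Artificial CD8 (-1.30 ± 0.11, edgeR adjusted p = 1.75e-08) and CD4+CD8+ cells (-1.40 ± 0.11, edgeR adjusted p = 6.72e-08). It was lower in splenic CD8 than in CD4+CD8+ cells (-1.12 ± 0.042, edgeR adjusted p = 1.47e-07) and higher in Artificial than in splenic CD8 (1.02 ± 0.053, edgeR adjusted p = 6.43e-08). Artificial CD8 and CD4+CD8+ were not distinguished (-0.10 ± 0.038, edgeR adjusted p = 0.616). Summed, the 5 CD4+CD8+ thymocyte markers were at or above 295 CPM in both groups with high Sla and at or under 40.6 CPM in both others. Singly they differed. Rag1, Rag2 and Ptcra averaged at least 20.8 CPM in both groups with high Sla and at most 0.832 CPM in both others. Cd4 averaged 224 CPM in CD4+CD8+ but 4.41 CPM in Artificial CD8. Dntt averaged 119, 72.2, 39.4 and 5.79 CPM in CD4+CD8+, Artificial CD8, splenic CD8 and iRTE. The part of cells with these markers in the Sla result was not tested.

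The small difference of Sla between iRTE and splenic CD8 (-0.28 ± 0.11, edgeR adjusted p = 0.0223) was fragile. It was lost without iRTE 3 (-0.24), iRTE 5 (-0.21), splenic CD8 1 (-0.25), splenic CD8 2 (-0.23) or splenic CD8 5 (-0.25). The same held without a filter on low counts (-0.27), in a fit of both groups alone (-0.27) and with iRTE 1 to 3 alone (-0.20). Cblb was highest in iRTE, at 183, 191, 127, 145 and 85.9 CPM. It read 128, 133, 142, 123 and 103 CPM in splenic CD8, 87.8, 91.2, 112, 88.3 and 79.6 CPM in Artificial CD8 and 71.2, 91.0 and 81.7 CPM in CD4+CD8+ cells. The libraries of iRTE 1 to 4 lay above every Artificial CD8 and CD4+CD8+ library, and iRTE 5 lay within both ranges. Cblb was higher in iRTE than in Artificial CD8 (0.67 ± 0.22, edgeR adjusted p = 0.00374) and CD4+CD8+ cells (0.85 ± 0.23, edgeR adjusted p = 0.00434), and with iRTE 4 and 5 alone neither passed (0.33 and 0.51). The call against CD4+CD8+ cells was also lost in a fit of iRTE and CD4+CD8+ libraries alone (0.85). Cblb was higher in splenic CD8 than in CD4+CD8+ cells (0.63 ± 0.13, edgeR adjusted p = 0.0111), a call lost without CD4+CD8+ 1 (0.54). The lower level in Artificial than in splenic CD8 (-0.46 ± 0.11, edgeR adjusted p = 0.0238) was lost without splenic CD8 1 (-0.42), 2 (-0.42) or 3 (-0.39) or Artificial CD8 5 (-0.41). Between iRTE and splenic CD8 the change of 0.21 ± 0.22, edgeR adjusted p = 0.284 did not pass. Leaving out single libraries moved it from 0.10 (without iRTE 2) to 0.36 (without iRTE 5), and it passed only in the latter fit; without iRTE 1 it was 0.12. Artificial CD8 and CD4+CD8+ were not distinguished (0.17 ± 0.13, edgeR adjusted p = 0.609).

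Themis encodes a T-lineage protein that binds Grb2 and SHP-1 and sets how thymocytes read weak ligands during positive selection. It was abundant in every group, from 342 to 531 CPM over the 18 libraries. Group means were 417 ± 65.5 CPM (SD, n = 3) in CD4+CD8+, 457 ± 77.3 in iRTE, 453 ± 63.9 in Artificial CD8 and 468 ± 47.5 in splenic CD8 (n = 5 each). The 6 changes lay between -0.046 and 0.17, with SE of 0.11 to 0.18 and a smallest edgeR adjusted p of 0.358. The libraries of all groups overlapped, and no order of the groups could be told.

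**Figure D3:**
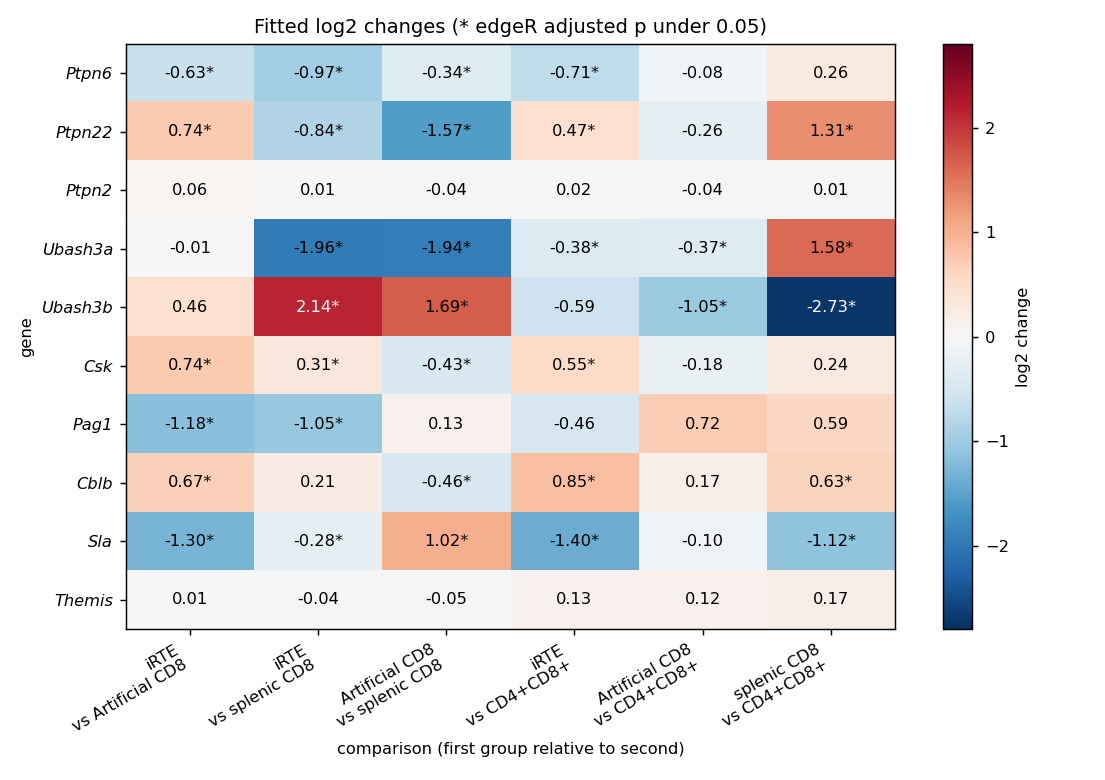
Fitted log2 changes of the 10 genes (rows) in the 6 comparisons (columns, first group relative to second); asterisks mark an edgeR adjusted p under 0.05. The extremes are both Ubash3b (-2.73 in splenic CD8 vs CD4+CD8+ and 2.14 in iRTE vs splenic CD8), while all 6 values of Ptpn2 and of Themis lie between -0.046 and 0.17.

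By comparison, the calls of these genes can be set beside those of all 13922 genes. In iRTE against Artificial CD8, 3 rose (Ptpn22, Csk and Cblb), 3 fell (Ptpn6, Pag1 and Sla) and 4 did not pass, where 38.7% of all genes passed, 20% higher and 18.7% lower. Against splenic CD8, 2 rose (Ubash3b and Csk) and 5 fell (Ptpn6, Ptpn22, Ubash3a, Pag1 and Sla) in iRTE, beside 58.2% of all genes, 29.2% higher and 29% lower. In Artificial against splenic CD8, 2 rose (Ubash3b and Sla) and 5 fell (Ptpn6, Ptpn22, Ubash3a, Csk and Cblb), beside 60.6% of all genes, 30.3% higher and 30.2% lower. In splenic CD8 against CD4+CD8+ cells, 3 rose (Ptpn22, Ubash3a and Cblb) and 2 fell (Ubash3b and Sla), beside 56.2%, 27.4% higher and 28.9% lower. The 10 genes were not tested as a group, and these counts do not set them apart from the background.

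Without overlap between the libraries of both groups were 3 of the 10 genes in iRTE against Artificial CD8 (23.6% of all genes), 4 in iRTE against splenic CD8 (41.2%) and 6 in Artificial against splenic CD8 (61.1%). Against CD4+CD8+ cells they were 5 in iRTE (19.5%), 3 in Artificial CD8 (29%) and 7 in splenic CD8 (63.4%).

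Against CD4+CD8+ cells, iRTE and Artificial CD8 gave different counts. In iRTE 3 of the 10 rose (Ptpn22, Csk and Cblb) and 3 fell (Ptpn6, Ubash3a and Sla), beside 24.2% of all genes, 11.8% higher and 12.3% lower. In Artificial CD8 none rose and 2 fell (Ubash3a and Ubash3b), beside 14.7%, 6.54% higher and 8.12% lower. The count of 0 rises came from edgeR, and DESeq2 and limma-voom also gave 0, with 1 gene (Pag1) higher at an unadjusted p under 0.05 in each. An edgeR fit of Artificial CD8 and CD4+CD8+ libraries alone did call Pag1 higher (0.72). The median size of the change, without its sign, was 0.51 over the 10 genes in iRTE (0.42 over all genes) and 0.18 in Artificial CD8 (0.35 over all genes). Both comparisons use the same 3 CD4+CD8+ libraries, and whether the counts differ was not tested. With iRTE 4 and 5 alone 3 of the 10 (Ptpn6, Ubash3a and Sla) fell and none rose against CD4+CD8+ cells, and a fit of iRTE and CD4+CD8+ libraries alone called 2 (Ptpn6 and Sla), both lower.

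Levels can be ranked between genes only per length, here as CPM per kilobase of the union of exons in GENCODE M21 on GRCm38, a later build than the mm9 of the authors' counts. Ptpn6 ranked first in each group, from 94.2 CPM per kilobase in iRTE to 185 in splenic CD8. Second came Sla in CD4+CD8+ (49.3) and Artificial CD8 (46.0), Csk in iRTE (50.3) and Ptpn22 in splenic CD8 (76.3). Themis stood at 35.7 to 40.1 and Ptpn2 at 34.1 to 35.4 CPM per kilobase in the 4 groups. Ubash3b ranked last in iRTE (4.79), Artificial CD8 (3.49) and splenic CD8 (1.08), and Ubash3a in CD4+CD8+ cells (6.91). Some of these ranks were close: Pag1 (5.40) and Ubash3a (5.31) came just above in iRTE, and Ubash3b (7.20) in CD4+CD8+ cells. The ranks were not tested.

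For each of the 10 genes, the other genes with the most similar course over the 18 libraries were sought among 8346 genes with a mean of at least 10 CPM. Each gene was centred on its own mean, and likeness was the root mean square of the remaining differences, in log2 units. The closest to Ubash3a were Plekhg2 (0.22) and Baiap3 (0.24), and to Ubash3b the urokinase receptor gene Plaur (0.36) and Nln (0.37). The closest to Sla were Prps2 (0.19) and Alg11 (0.21), to Ptpn22 Sp100 (0.20) and Rab11fip3 (0.20), and to Ptpn6 Fubp1 (0.16) and Zw10 (0.18). Csk ran closest to Coro1a (0.13), which encodes an actin-binding protein of T cells, and Nmi (0.13), Cblb to Tmem229b (0.12) and Fam117b (0.18), and Pag1 to Med13 (0.26) and Zfp397 (0.27). The genes with no called change, Ptpn2 and Themis, ran closest to Mrpl9 (0.11) and Vamp4 (0.12), and to Fam120a (0.14) and Rab21 (0.14). Among the 10 themselves the most alike pair was Ptpn2 and Themis (0.23) and the least alike Ubash3a and Ubash3b (1.82). Differences were not scaled by each gene's spread. Genes that vary little, such as Ptpn2 and Themis, therefore score as alike whether or not they share a course.

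A list of 35 other negative regulators was read the same way, of which Rnf128 and Spry2 were too low to test. In iRTE 15 of 33 were higher and 7 lower than in Artificial CD8 (20% and 18.7% of all genes), with a median change of 0.30 (0.0059 over all genes). Among those with no overlap, Dok1, an adaptor that recruits Ras inhibitors, rose by 1.50 ± 0.14, the ubiquitin ligase gene Peli1 by 1.30 ± 0.12 and the Ras inhibitor gene Rasal3 by 1.02 ± 0.19. The receptors Cd6 and Cd5, which dampen T-cell receptor signals and whose levels track signal strength in thymocytes, were lower in iRTE. Cd6 averaged 4.97 ± 5.09 CPM in iRTE and 87.3 ± 14.3 CPM in Artificial CD8 (-4.19 ± 0.83, edgeR adjusted p = 1.48e-06). Cd5 averaged 8.34 ± 3.72 and 56.3 ± 0.808 CPM (-2.75 ± 0.30, edgeR adjusted p = 1.99e-08). Spred1, an inhibitor of Ras signalling, changed by -2.05 ± 0.41, and the edgeR adjusted p of these 6 genes was at most 0.000114.

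Against splenic CD8, 10 of the 33 were higher and 16 lower in iRTE (29.2% and 29% of all genes), with a median change of -0.35 (-0.047 over all genes). In Artificial CD8, 6 were higher and 18 lower (30.3% and 30.2% of all genes), with a median of -0.50 (-0.027 over all genes). Cd6 at 265 ± 16.3 CPM and Cd5 at 98.9 ± 5.29 CPM in splenic CD8 were lower in iRTE by changes of -5.79 ± 0.82 and -3.56 ± 0.31. Dgka, which clears the second messenger diacylglycerol, changed in iRTE by -1.51 ± 0.081 and in Artificial CD8 by -2.35 ± 0.081. Ptprj, a receptor phosphatase of which splenic CD8 held 1.30 ± 0.998 CPM, rose in iRTE by 4.27 ± 0.73 and in Artificial CD8 by 4.63 ± 0.36. The ubiquitin ligase gene Nedd4 rose by 1.13 ± 0.094 and 1.33 ± 0.043, and the phosphatase gene Ptpn4 by 1.50 ± 0.27 and 1.05 ± 0.14. In Artificial CD8, Rasal3 changed by -2.09 ± 0.064 and Tnfaip3, a brake on NF-kB signalling, by -2.55 ± 0.12. The edgeR adjusted p of these genes ranged up to 0.000418.

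Against CD4+CD8+ cells, 6 of the 33 were higher and 5 lower in iRTE (24.2% of all genes were called), 2 higher and 5 lower in Artificial CD8 (14.7%), and 14 higher and 7 lower in splenic CD8 (56.2%). In iRTE, Peli1 rose by 1.02 ± 0.19, Dok1 by 0.97 ± 0.42 and Rasal3 by 0.77 ± 0.19, while Cd6 changed by -5.26 ± 0.82, Cd5 by -3.00 ± 0.33 and the phosphatase gene Ptpn7 by -1.53 ± 0.27. In Artificial CD8, Dgka changed by -0.69 ± 0.085, the adaptor gene Sit1 by -0.69 ± 0.12 and Rasa3, a Ras inhibitor, by -0.68 ± 0.15, the last lost without CD4+CD8+ 2 (-0.61) or 3 (-0.60). The ubiquitin ligase gene Cbl rose by 0.51 ± 0.075, a call lost without CD4+CD8+ 2 (0.48), CD4+CD8+ 3 (0.48) or Artificial CD8 4 (0.48). The count there fell from 7 to 3 without CD4+CD8+ 2 or without CD4+CD8+ 3. In splenic CD8, Rasal3 rose by 1.84 ± 0.054, Dgka by 1.66 ± 0.034 and Tnfaip3 by 1.88 ± 0.33 (lost without CD4+CD8+ 1, 1.63, or 3, 1.86), and Ptprj changed by -3.01 ± 0.39, Nedd4 by -1.24 ± 0.20 and Rasa3 by -1.09 ± 0.15.

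A list of 21 other genes of T-cell receptor signalling was read too, most of them for kinases, adaptors and receptor chains. It is called by those names below, although it also holds others, such as Plcg1. In iRTE 11 of the 21 were higher and 2 lower than in Artificial CD8 (20% and 18.7% of all genes), with a median change of 0.26 (0.0059 over all genes). Adaptor genes led the rises, Grap2 by 0.77 ± 0.14 and Lcp2, which encodes SLP-76, by 0.74 ± 0.071, followed by the kinase gene Fyn at 0.72 ± 0.13. Syk, a relative of Zap70 used by immature thymocytes, changed by -2.60 ± 1.10 and Rasgrp1 by -0.81 ± 0.26. Lck, the main target of Csk, did not pass (-0.17 ± 0.074, edgeR adjusted p = 0.148). Against splenic CD8, 3 were higher and 8 lower in iRTE (median -0.26), where 58.2% of all genes were called, 29.2% higher and 29% lower, so the number called there was not above the background. In Artificial CD8, 2 were higher and 13 lower (median -0.53), where 60.6% of all genes were called, 30.3% higher and 30.2% lower. The phospholipase gene Plcg1 changed by -1.37 ± 0.059 in iRTE and -1.73 ± 0.073 in Artificial CD8. Lat changed in iRTE by -1.03 ± 0.20, and Cd3d rose there by 0.60 ± 0.13. In Artificial CD8, Syk rose over splenic CD8 by 3.35 ± 0.18 and Grap2 changed by -1.70 ± 0.057. Rasgrp1 rose there by 0.50 ± 0.062, a call lost in each of the 10 fits that left out a library of either group (0.48 to 0.55). Txk rose in iRTE by 0.24 ± 0.054, and not with scaling to library totals (0.052).

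Against CD4+CD8+ cells, 4 of the 21 were higher and 2 lower in iRTE (24.2% of all genes were called), 9 higher and 2 lower in splenic CD8 (56.2%), and 5 lower in Artificial CD8 (14.7%). The counts in iRTE and splenic CD8 are near that background. No rise was called in Artificial CD8 by edgeR, DESeq2 or limma-voom, and none had an unadjusted p under 0.05. Of all genes 6.54% were called higher there and 8.12% lower by edgeR, so the lack of rises does not set these 21 genes apart. Plcg1 rose in splenic CD8 by 1.70 ± 0.22 and Grap2 by 1.41 ± 0.11, and Syk changed by -3.45 ± 0.34. Lck changed by -0.25 ± 0.089, lost without CD4+CD8+ 1 (-0.17) or splenic CD8 1 (-0.26), 2 (-0.25) or 3 (-0.26), and also with library totals (-0.18), DESeq2's size factors in edgeR (-0.24), no filter (-0.27) or a 10 CPM filter (-0.21). In iRTE, Txk rose by 0.40 ± 0.049 and Grap2 by 0.47 ± 0.17, the latter lost without CD4+CD8+ 2 (0.46) or 3 (0.39), and Syk and Lck changed by -2.69 ± 1.13 and -0.41 ± 0.10. The count of 6 in iRTE became 10 without iRTE 4, and the count of 5 in Artificial CD8 became 2 without CD4+CD8+ 2 and 3 without CD4+CD8+ 3 or Artificial CD8 1, 2 or 3. In Artificial CD8, Lcp2 changed by -0.52 ± 0.043, Cd3g by -0.52 ± 0.19 and Prkcq by -0.48 ± 0.052. The call of Cd3g was lost without CD4+CD8+ 1 (-0.31) and that of Prkcq without CD4+CD8+ 2 (-0.46).

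**Figure D4:**
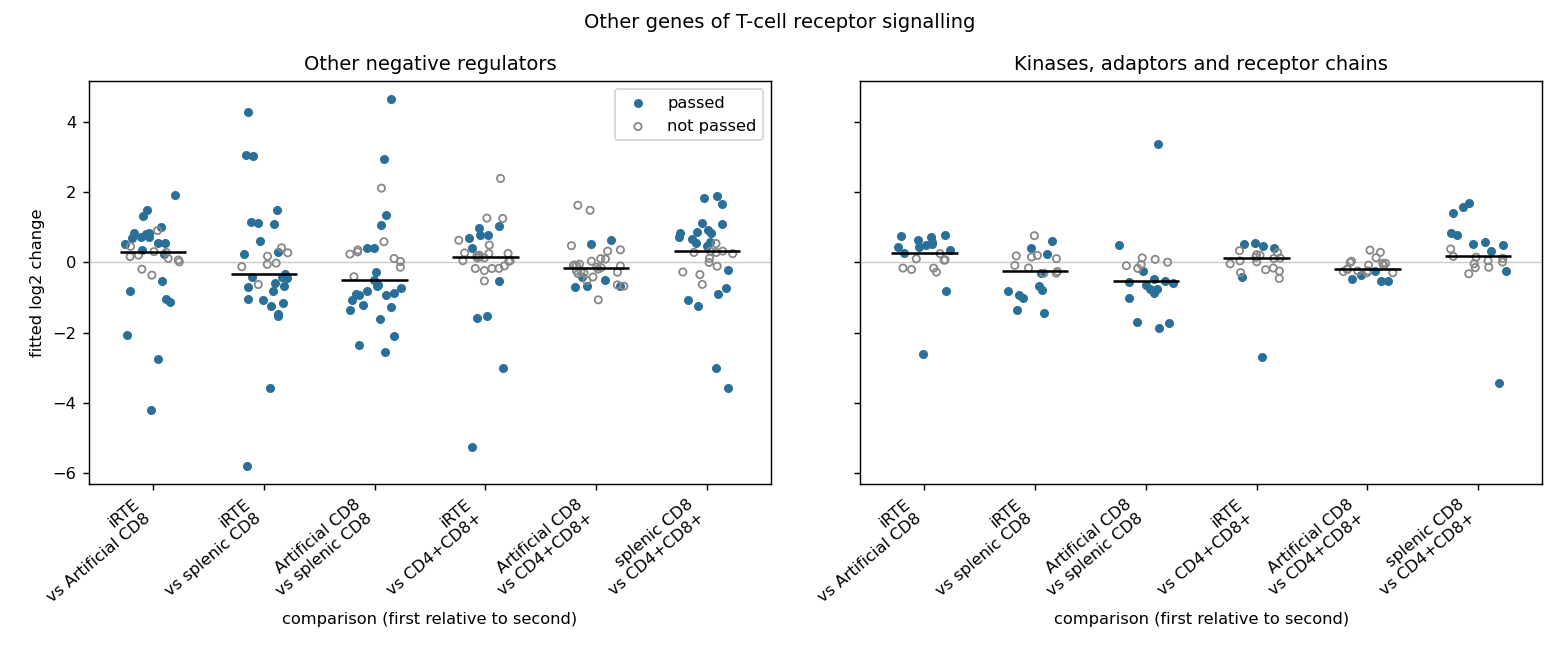
Fitted log2 changes of the 33 tested other negative regulators (left) and the 21 genes listed as kinases, adaptors and receptor chains (right) in the 6 comparisons. Filled points passed an edgeR adjusted p of 0.05, open points did not, and lines are medians. The medians lie above 0 for iRTE vs Artificial CD8 (0.30 and 0.26) and below 0 for Artificial CD8 vs splenic CD8 (-0.50 and -0.53). The lowest point on the left is Cd6, at -5.79 in iRTE vs splenic CD8.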

How the data were processed

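Gene counts from the 18 libraries were used as deposited: whole-number count values per gene symbol that, per the submitters' processing notes, the authors made with STAR 2.4.2, build mm9 and Subread. Their headers refer to a duplicate-marked alignment. A deposited log-scale table of the same libraries was not used. Annotation and strandedness, not given in the sources used here, could not be checked.

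Genes kept by edgeR's default filter (13922 of 43280) were TMM-scaled. All 18 libraries entered 1 edgeR 4.0.16 quasi-likelihood fit (R 4.3.3) with a coefficient per group. The 6 contrasts were adjusted by Benjamini-Hochberg over all genes tested, with a threshold of 0.05. SE values use log2 CPM with a prior count of 2. The fit was tested on simulated data. Replicates differed beyond counting noise (lowest chi-square over degrees of freedom in any pair, 4.51). Library totals ran from 11132768 to 19305751, and each of the 10 genes had at least 102 counts in every library.

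The 10 genes, the lists and the tests were chosen with earlier results of these data known. Named were the 10 genes, per comparison up to 3 called list genes in each direction without overlap at 10 CPM or more, and 2 genes of like course for each of the 10; a few of these genes are not reported here. Alternatives were other scalings, filters, DESeq2 1.42.0, limma-voom (limma 3.58.1), fits of 2 groups, a replicate block, single libraries left out, and iRTE libraries by naming.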

Additional observations from a re-analysis of the deposited data

Results flagged for a closer look

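Among 30 combinations of a gene and a group of 5 libraries, 2 held a library far from its group, and chance gives about 1 in 20. Ubash3b stood at 19.7 CPM in iRTE 5, where the other 4 iRTE libraries held 34.6 to 42.9 CPM. Without that library the difference of Ubash3b between iRTE and Artificial CD8 passed the threshold (0.61). Pag1 stood at 79.2 CPM in Artificial CD8 5, where the other 4 held 117 to 135 CPM, and leaving it out changed no call of Pag1.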

How the results depend on the processing

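Of the 60 changes (10 genes in 6 comparisons), 29 kept their direction and their side of the threshold under every alternative run, among them 20 of the 33 called, and none of the 33 changed sign. In iRTE against CD4+CD8+, fitting only these groups called 2 of the 10 genes, 4 of the other negative regulators, 0 of the kinases, adaptors and chains, and 1068 of all genes, where the fit of all 18 libraries called 6, 11, 6 and 3367. With iRTE 4 and 5 alone 3 of the 10 genes and 3 kinases, adaptors and chains were called, and with iRTE 1 to 3 alone 11 of the latter; leaving out single libraries gave 4 to 10. In Artificial CD8 against CD4+CD8+, where 2, 7, 5 and 2041 were called, no filter gave 1 of the 10 genes and 3 kinases, adaptors and chains, library totals 3 of the latter, and a fit of only these groups 11 other negative regulators and 3362 of all genes. Leaving out single libraries there gave 1 to 2, 3 to 8, 2 to 4 and 1316 to 1773.

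Correlations of deviations over 24 same-numbered pairs of libraries ran from -0.066 to 0.059. In 5 of the 24 the best match had the same number, among them Artificial CD8 3, 4 and 5 with splenic CD8. Low correlations give no sign of pairing by number, but cannot exclude it. With a replicate block 1 of the 10 genes was called in Artificial CD8 against CD4+CD8+, and the calls of Ubash3a there (-0.34, edgeR adjusted p = 0.0724) and of Ptpn22 in iRTE against CD4+CD8+ (0.49, edgeR adjusted p = 0.0697) were lost.

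Scaling by library totals moved the median change of all genes from 0.0059 to -0.11 (iRTE against Artificial CD8) and from -0.047 to -0.23 (iRTE against splenic CD8). The cause of the other shifts was not tested. Sign changes touched values that were not called. Ptpn2 turned with library totals in iRTE against Artificial CD8 (-0.069), splenic CD8 (-0.17) and CD4+CD8+ (-0.084). In iRTE against splenic CD8 it also turned with DESeq2's size factors in edgeR (-0.0014), a 10 CPM filter (-0.021), DESeq2 (-0.0017) and iRTE 4 and 5 alone (-0.014). It turned in iRTE against CD4+CD8+ with iRTE 4 and 5 alone (-0.0082), in Artificial CD8 against CD4+CD8+ with the 10 CPM filter (0.0014) and in splenic CD8 against CD4+CD8+ without a filter (-0.0094). Themis in iRTE against Artificial CD8 turned with library totals (-0.11), those size factors (-0.010), no filter (-0.019), the 10 CPM filter (-0.019), DESeq2 (-0.010) and iRTE 4 and 5 alone (-0.019). Ubash3a turned there with iRTE 1 to 3 alone (0.094), and with iRTE 4 and 5 alone Cblb turned against splenic CD8 (-0.12) and Pag1 against CD4+CD8+ (0.072).

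With single libraries left out, Ubash3a in iRTE against Artificial CD8 ran from -0.067 to 0.032. Themis ran from -0.050 to 0.089 there, from -0.096 to 0.044 in iRTE against splenic CD8, from -0.088 to 0.014 in Artificial against splenic CD8 and from -0.0064 to 0.19 in Artificial CD8 against CD4+CD8+. Against splenic CD8, Ptpn2 lay between -0.019 and 0.066 in iRTE and between -0.069 and 0.017 in Artificial CD8, and against CD4+CD8+ between -0.049 and 0.14 in iRTE, -0.10 and 0.086 in Artificial CD8 and -0.070 and 0.13 in splenic CD8. Each of the 10 genes had at least 102 counts per library, and intervals rest mainly on 3 to 5 libraries per group.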

Other observations

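Relatives of some of the 10 regulators are among the other negative regulators, and those named here were picked after their values were seen. Sla2, which encodes SLAP-2, averaged 478 ± 77.2 CPM in iRTE, 415 ± 52.8 CPM in CD4+CD8+ cells, 295 ± 12.7 CPM in Artificial CD8 and 223 ± 13.3 CPM in splenic CD8. It was higher in iRTE than in Artificial CD8 (0.70 ± 0.10, edgeR adjusted p = 2.82e-05) and splenic CD8 (1.10 ± 0.10, edgeR adjusted p = 6.23e-08). Sla was lower in iRTE in both comparisons, but its call against splenic CD8 was fragile. Between iRTE and CD4+CD8+ cells the change of Sla2 did not pass (0.20 ± 0.14, edgeR adjusted p = 0.231). Cbl, the relative of Cblb, averaged 70.8 ± 15.8 CPM in iRTE and 147 ± 8.63 CPM in Artificial CD8 and was lower in iRTE (-1.05 ± 0.15, edgeR adjusted p = 3.2e-06), where Cblb was higher. Ptpn11, which encodes SHP-2 and is related to Ptpn6, averaged 70.5 ± 10.4 CPM in iRTE and 58.4 ± 3.57 CPM in splenic CD8 and did not pass (0.27 ± 0.10, edgeR adjusted p = 0.0897), where Ptpn6 was lower in iRTE. Ptpn12, of the same phosphatase family as Ptpn22, averaged 13.8 ± 1.94 CPM in iRTE, 11.9 ± 2.68 CPM in Artificial CD8 and 22.3 ± 1.31 CPM in splenic CD8. Like Ptpn22 it was lower than in splenic CD8 in iRTE (-0.70 ± 0.096, edgeR adjusted p = 0.00171) and in Artificial CD8 (-0.90 ± 0.16, edgeR adjusted p = 0.000151). Ptpn18, also of that family, was lower in Artificial than in splenic CD8 (-0.74 ± 0.069, edgeR adjusted p = 0.00765) and did not pass in iRTE (-0.023 ± 0.27, edgeR adjusted p = 0.94).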
